A study of Caenorhabditis elegans with 15 samples.

Results

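The genes described here are those that *Caenorhabditis elegans* uses to start and extend protein chains and to charge transfer RNAs, measured by mRNA sequencing in wild-type animals and in mutants with a respiratory chain defect. They were taken by WormBase public name: names opening with eif, ife, ifg, iff, iftb, eef or eftu followed by a number, names of the form of 1 amino acid letter followed by ars-1 or ars-2, and *inf-1*. This gave 72 of the 20483 genes in the deposited tables. Of these, 34 were counted by name as initiation factors and 6 as elongation factors, and 19 encode cytosolic and 11 mitochondrial tRNA synthetases. The 34 include *eif-4A3*, for a helicase of the exon junction complex, and *iff-1* and *iff-2*, for eIF5A, which acts in elongation. *vars-1* was counted apart because its compartment was not certain, and *eftu-2* because it encodes a GTPase of the spliceosome rather than a translation factor. All 72 genes passed the filter on low values.

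Whole animals of 3 strains were compared, each with 5 libraries: the double mutant *age-1(hx546); gas-1(fc21)*, the single mutant *gas-1(fc21)*, and wild type (wt), the Bristol strain N2. The product of *gas-1* belongs to respiratory complex I, and fc21 is a loss-of-function allele that both mutant strains carry. AGE-1 is the catalytic part of the phosphoinositide kinase that insulin/IGF-1 signalling works through, and hx546 lowers the activity of that pathway. The animals were grown at 20 °C. The labels give L4 as their stage, whereas the study's methods for sequencing name none. For the isolation of RNA those methods refer to another passage. The only such protocol in the study is that of its qRT-PCR, which used young adults. The labels and the methods may thus differ, and the stage was not tested. *age-1* mutants without the *gas-1* allele were not analysed here. The contrast of *age-1; gas-1* with *gas-1* thus compares strains that share *gas-1(fc21)* and differ by label in *age-1(hx546)*. Each genotype is a single strain, so an effect of hx546 cannot be told apart from other differences between the strains.

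In eukaryotes, eIF2 carries the initiator tRNA to the small ribosomal subunit, eIF3 holds the initiation complex together, and the cap-binding eIF4E, the scaffold eIF4G and the helicase eIF4A bring the mRNA to it. eEF1A then delivers each charged tRNA, the eEF1B complex recharges eEF1A with GTP, and eEF2 moves the ribosome along. Each amino acid has its own synthetase, and mitochondria translate the mRNAs of their own genome with a separate set of synthetases, although in human the genes for the glycine and lysine enzymes are known to serve both compartments. Initiation is a known target of insulin/IGF-1 and TOR signalling and of kinases that phosphorylate eIF2 alpha under stress.

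The values are FPKM, a measure that divides the fragments of a transcript by its length and by the mapped fragments of the library, so that levels of different genes can be set side by side. They hold no read totals, so the depth behind a value is unknown and no counting interval is given. Fold changes are on the log2(FPKM + 0.1) scale, and a gene is called where limma gave a Benjamini-Hochberg adjusted p under 0.05 among the 11648 genes tested. The mRNA of *gas-1* itself stood at 203.7 to 234 FPKM in *age-1; gas-1*, 190.3 to 244.6 in *gas-1* and 95.73 to 122.5 in wt animals, and *age-1* at 3.69 to 4.03, 3.12 to 4.15 and 4.18 to 5.18 FPKM in the same strains, but neither checks the labels, because the alleles are not expected to remove the mRNA. The 41 sperm genes summed to 21.6 to 177 FPKM in *age-1; gas-1*, 27.3 to 119 in *gas-1* and 10.1 to 440.2 in wt libraries, and 4 libraries were low in them: *age-1; gas-1* replicates 2 and 5, *gas-1* replicate 2 and wt replicate 3. Markers of the germ line moved with the strains: the 13 germline stem and meiotic genes summed to 2368 to 2547 FPKM in *age-1; gas-1*, 2655 to 3148 in *gas-1* and 3639.5 to 4022 in wt animals, without overlap, and the 14 oocyte genes to 8415 to 10156, 9212 to 11426 and 11248 to 14197 FPKM in these strains. In *gas-1* compared to wt 9 of the 13 and 6 of the 14 were lower, and 8 of the 13 and 9 of the 14 in *age-1; gas-1* against *gas-1*, where 2 oocyte genes were higher. Over all tested genes 24.6% were lower and 44% higher in *gas-1* compared to wt, and 19.5% lower and 13.5% higher between the mutants. None of the 13 germline or 14 oocyte genes was listed at 0 in any library. Of the somatic markers, 5 of 7 intestinal and 5 of 6 tested hypodermal genes were higher in *gas-1* compared to wt, as were 2 of 8 body wall muscle genes, while 1 intestinal gene was lower. The 2 of 8 muscle genes are below the 44% of all tested genes that were higher. Of 9 tested genes from a list drawn up for embryos, 7 were higher and 1 lower in each mutant compared to wt. Over all tested genes 44% and 44.5% were higher there, and none of the 9 was called between the mutants. The list includes tissue factors such as *elt-3*, *nhr-25* and *pha-4*, so it is not specific to embryos. The 14 genes of that list summed to 425 to 672 FPKM in *age-1; gas-1*, 496 to 561 in *gas-1* and 418 to 628 in wt libraries, which overlap. In whole animals, fewer cells of a type and less RNA per cell cannot be told apart, and the part that germline, embryo or other tissue content has in the results was not tested.

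Most genes of translation had lower mRNA levels in *gas-1* than in wt animals, and still lower levels in *age-1; gas-1* than in *gas-1* animals. In *gas-1* compared to wt, 53 of the 72 genes were lower and 9 higher, where 24.6% of all tested genes were lower and 44% higher (68.6% in all). In *age-1; gas-1* against *gas-1*, 47 were lower and 2 higher, with 19.5% and 13.5% of all genes lower and higher (33% in all). In *age-1; gas-1* compared to wt, 60 were lower and 4 higher, with 31.2% and 44.5% of all genes lower and higher (75.7% in all). The median log2 fold change of the 72 genes was -0.21, -0.17 and -0.38 in these comparisons, and that of all tested genes was 0.14, -0.02 and 0.14. In 47 genes all 5 *gas-1* libraries lay below all 5 wt libraries and in 6 above them, where the 2 sets of libraries did not overlap in 50.5% of all genes (18.8% lower, 31.7% higher). Between the mutants these numbers were 45 and 1, against 15.7% and 10.6% of all genes (26.3% in all), and in *age-1; gas-1* against wt 58 and 3, with 27% and 35.2% (62.2% in all). These 3 comparisons share libraries, so a gene's values in them are not independent of each other. Without the 4 libraries low in sperm genes, 61, 37 and 63 of the 72 genes were called in either direction, against 62, 49 and 64 with them.

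How the libraries are scaled moved the split over all genes. In *gas-1* compared to wt, 64.1% of all calls were higher as deposited, 51.2% after median-of-ratios rescaling, 42.4% when that was taken over all genes, and 40.9% after quantile normalization, with the median of all tested genes at 0.14, 0.01, -0.10 and -0.08. In *age-1; gas-1* compared to wt the share was 58.8% as deposited, 42.6% after median-of-ratios rescaling over all genes and 40.2% after quantile normalization, and the median 0.14, -0.14 and -0.12. Between the mutants it was 40.9% as deposited and 50.2% after upper-quartile rescaling. The count of lower members in *gas-1* compared to wt was 60, 65 and 54 with median-of-ratios, median-of-ratios over all genes and quantile normalization, and that of higher members 5, 2 and 7. Between the mutants the count of lower members fell under each of these scalings. From 47 it became 37 with median-of-ratios, 41 when that was taken over all genes, 35 with upper-quartile rescaling and 41 after quantile normalization. The 12 cytosolic synthetases lower between the mutants became 9, 8, 9 and 11 in the same order.

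The classes differed in how they were placed. Medians of log2 fold change were -0.27, -0.27 and -0.48 for the initiation factors, 0.02, -0.14 and -0.14 for the elongation factors, -0.28, -0.17 and -0.47 for the cytosolic synthetases, and -0.17, -0.10 and -0.25 for the mitochondrial synthetases, in *gas-1* compared to wt, *age-1; gas-1* against *gas-1* and *age-1; gas-1* compared to wt. Taken relative to the median of all tested genes, the initiation factors lay 0.40, 0.25 and 0.62 lower and the cytosolic synthetases 0.42, 0.15 and 0.61 lower. No test of the difference between classes was made. Per library, the median initiation factor stood at -0.57 to -0.48 relative to its wt mean in *age-1; gas-1*, at -0.34 to -0.21 in *gas-1*, and at -0.08 to 0.10 in wt libraries, and these ranges do not overlap. For the mitochondrial synthetases the ranges of the mutants did overlap, at -0.31 to -0.18 in *age-1; gas-1* and -0.27 to -0.10 in *gas-1*, while wt libraries lay at -0.07 to 0.08.

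**Figure D1:**
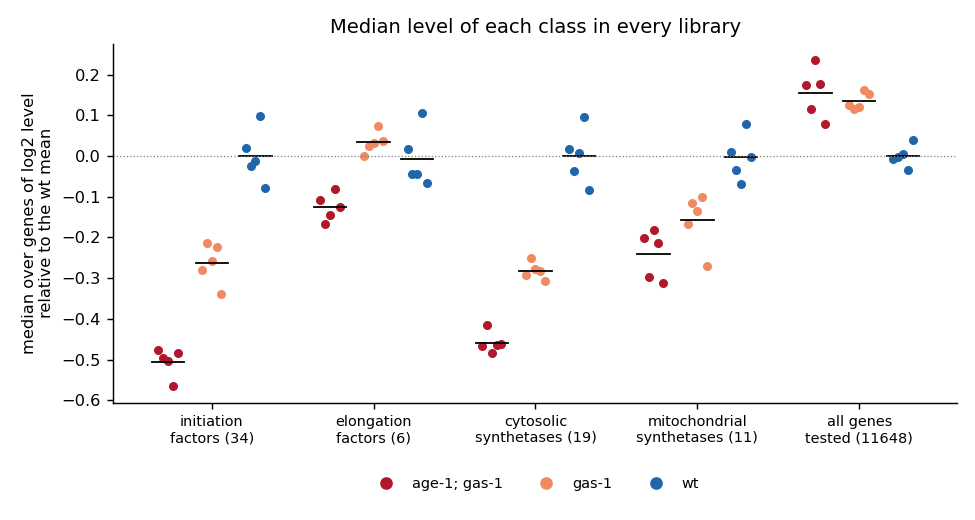
Median over the genes of each class of the log2 level relative to the mean of the wt libraries, for every library of each strain (points, 5 a strain) with the mean of the 5 (bar). The initiation factors and the cytosolic synthetases form 3 separate levels, lowest in age-1; gas-1, whereas the median over all tested genes lies above that of wt in both mutants.

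In 33 of the 72 genes every *age-1; gas-1* library lay below every *gas-1* library and every *gas-1* library below every wt library, an order found in 4.68% of all tested genes (545 of 11648). Of these, 18 were among the 34 initiation factors, 13 among the 19 cytosolic synthetases, 1 among the 6 elongation factors and 1 among the 11 mitochondrial synthetases. The mean levels followed that order in 55 of the 72 genes and the opposite order in 2.

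Among the initiation factors, 27 of 34 were lower and 4 higher in *gas-1* compared to wt, 27 lower and 1 higher in *age-1; gas-1* against *gas-1*, and 29 lower and 3 higher in *age-1; gas-1* compared to wt. Over all tested genes 24.6%, 19.5% and 31.2% were lower and 44%, 13.5% and 44.5% higher in these comparisons. The 23 genes that were lower at both steps included both factors of start codon selection, all 3 subunits of eIF2, 4 of the 5 subunits of its exchange factor eIF2B and 8 of the 11 subunits of eIF3. With 1 library left out in turn, the numbers of lower genes were 27, 24 to 28 and 29.

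*eif-1.A* encodes eIF1A, which helps the small subunit to scan for the start codon. It stood at 108, 103, 107, 103 and 109 FPKM in *age-1; gas-1* libraries and 122, 128, 122, 133 and 126 in *gas-1* libraries, against 184, 173, 160.4, 191 and 162 in wt libraries. The 3 strains do not overlap, and the log2 fold changes were -0.46 in *gas-1* compared to wt (SE 0.048, adjusted p = 1.4e-06) and -0.25 in *age-1; gas-1* against *gas-1* (SE 0.048, adjusted p = 0.0011). *eif-1*, which encodes the start codon factor eIF1, averaged 85.4 ± 3.21 FPKM in *age-1; gas-1*, 107 ± 3.97 in *gas-1* and 119 ± 6.92 in wt animals (SD, n = 5 each, as for all means below). Its *gas-1* and wt libraries overlapped (-0.15, adjusted p = 0.0078) and its *age-1; gas-1* libraries lay below both (-0.33 compared to *gas-1*, adjusted p = 5.9e-05).

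The subunits of eIF2, which binds GTP and the initiator tRNA, were all lower in each of the 3 comparisons as deposited. Between the mutants 2 of the 3 were lower with median-of-ratios, upper-quartile or quantile scaling, or without the 4 libraries low in sperm genes. *eif-2alpha*, whose product is the subunit phosphorylated by stress kinases, stood at 29.4, 25.5, 28.03, 28.01 and 26.5 FPKM in *age-1; gas-1* libraries and at 29.3, 30.2, 29.2, 32.7 and 30.8 in *gas-1* libraries, against 46.6, 44.7, 43.2, 49.9 and 42.6 in wt libraries. Both mutants thus lay below every wt library, while the mutants overlapped each other. The log2 fold change was -0.58 in *gas-1* compared to wt (SE 0.051, adjusted p = 3.6e-07) and -0.15 in *age-1; gas-1* against *gas-1* (SE 0.051, adjusted p = 0.041). The call between the mutants was lost, with adjusted p between 0.052 and 0.11, when 1 of 8 libraries was left out: wt replicate 2, *gas-1* replicates 2, 4 and 5, and *age-1; gas-1* replicates 2, 3, 4 and 5. The level of *eif-2beta* was likewise lower at both steps, by 0.19 and 0.21 (adjusted p = 0.00016 and 0.00031). *eif-2gamma*, the GTP-binding subunit and the most abundant of the 3, averaged 312 ± 10.6 FPKM in *age-1; gas-1*, 361 ± 11.6 in *gas-1* and 467 ± 21.3 in wt animals, without overlap between the strains.

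eIF2B exchanges GDP for GTP on eIF2 and is the step that phosphorylated eIF2 blocks. Of its 5 subunit genes, 4 were lower in *gas-1* compared to wt, and all 5 were lower in *age-1; gas-1* against *gas-1* and to wt. The exception was *eif-2Bbeta*, at 13.7, 14.4, 13.8, 12.6 and 13.99 FPKM in *age-1; gas-1* libraries, 17.004, 18.5, 17.4, 17.1 and 16.96 in *gas-1* libraries and 16.3, 16.6, 18.0, 16.6 and 16.4 in wt libraries. Its *gas-1* and wt libraries overlapped (log2 fold change 0.05, adjusted p = 0.31), and only the double mutant stood apart. *eif-2Balpha*, in contrast, formed 3 levels without overlap, at 24.3, 23.0, 25.2, 23.8 and 24.2 FPKM in *age-1; gas-1* libraries, 29.0, 31.9, 30.9, 32.2 and 30.0 in *gas-1* libraries and 37.8, 37.9, 37.9, 40.3 and 37.8 in wt libraries (-0.31 in *gas-1* compared to wt, adjusted p = 4.7e-06).

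The subunit genes of eIF3 moved as a group in the contrast between the mutants. All 11 were lower in *age-1; gas-1* than in *gas-1*, and in all 11 no *age-1; gas-1* library reached the lowest *gas-1* library, a separation seen downward in 15.7% of all tested genes. Their log2 fold changes lay between -0.45 and -0.17, with a median of -0.33. With either median-of-ratios, upper-quartile or quantile scaling, or without the 4 libraries low in sperm genes, 10 of the 11 were called lower. The call of *eif-3.F*, the smallest change (-0.17, adjusted p = 0.031), was lost without *gas-1* replicate 2, 4 or 5 or replicate 1, 3 or 4 of *age-1; gas-1*, with adjusted p between 0.053 and 0.079, and 10 of 11 were then called. In *gas-1* compared to wt the subunits were less uniform, with 8 lower, 1 higher and 2 that did not pass, and without wt replicate 4 *eif-3.B* made a second higher one (adjusted p = 0.0395).

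The largest change among the 34 initiation factors in *age-1; gas-1* compared to wt was that of *eif-3.J*, which encodes a subunit loosely bound to the complex. It stood at 128, 125, 124, 129 and 142.4 FPKM in *age-1; gas-1* libraries and 175, 191, 168, 188 and 168 in *gas-1* libraries, against 271, 282, 289, 313 and 265 in wt libraries. The strains form 3 separate levels, with log2 fold changes of -0.67 in *gas-1* compared to wt (SE 0.054, adjusted p = 1.2e-07), -0.45 in *age-1; gas-1* against *gas-1* (SE 0.054, adjusted p = 2.7e-05) and -1.13 in *age-1; gas-1* compared to wt (SE 0.054, adjusted p = 5.3e-10).

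*eif-3.I* went against the rest of its complex in *gas-1* animals. Its levels were 18.4, 19.3, 17.3, 19.2 and 19.5 FPKM in *age-1; gas-1* libraries, 25.3, 26.3, 25.3, 25.7 and 25.7 in *gas-1* libraries, and 20.3, 19.4, 18.4, 21.9 and 18.5 in wt libraries. All 5 *gas-1* libraries lay above all others, and *age-1; gas-1* overlapped wt. The log2 fold change was 0.38 in *gas-1* compared to wt (SE 0.050, adjusted p = 1.3e-05) and -0.45 in *age-1; gas-1* against *gas-1* (SE 0.050, adjusted p = 1.5e-05), while the double mutant differed from wt by -0.07 (adjusted p = 0.22). With median-of-ratios rescaling, the same over all genes, and quantile normalization, the double mutant was called lower than wt (-0.19, -0.35 and -0.22, adjusted p = 0.021, 0.00061 and 0.0037). The rise in *gas-1* was 0.14 with median-of-ratios rescaling over all genes and did not pass (adjusted p = 0.10). *eif-3.B* and *eif-3.E* did not pass between *gas-1* and wt, at log2 fold changes of 0.06 and 0.01 (adjusted p = 0.13 and 0.86), and both were lower in the double mutant than in either.

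**Figure D2:**
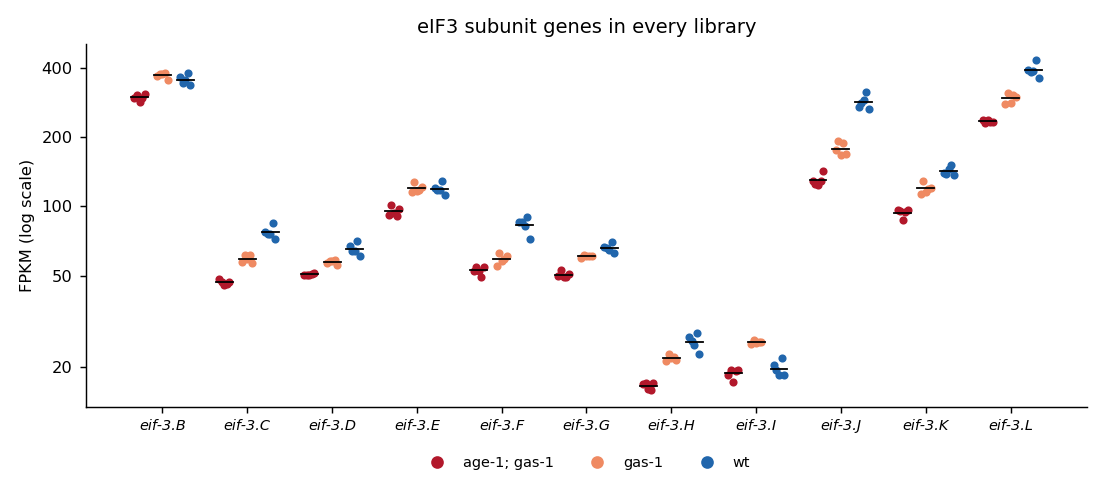
FPKM of the 11 eIF3 subunit genes on a log scale in every library (points, 5 a strain) with the mean of each strain (bar). The age-1; gas-1 libraries lie below the gas-1 libraries in all 11 genes, eif-3.J forms 3 levels, and eif-3.I is highest in gas-1.

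Of the genes that bring the mRNA to the ribosome, *inf-1* and *ifg-1* encode eIF4A and eIF4G. *inf-1* stood at 42.5, 39.4, 41.7, 40.8 and 42.6 FPKM in *age-1; gas-1* libraries and 54.96, 57.5, 56.8, 55.6 and 54.5 in *gas-1* libraries, against 78.1, 78.3, 78.2, 85.2 and 70.6 in wt libraries. The 3 strains were far apart relative to their spread, with log2 fold changes of -0.48 in *gas-1* compared to wt (SE 0.043, adjusted p = 3.3e-07) and -0.91 in *age-1; gas-1* compared to wt (SE 0.043, adjusted p = 4.4e-10). *ifg-1* stood at 322, 317, 324, 298 and 315 FPKM in *age-1; gas-1* libraries and 364, 364, 369, 356 and 297 in *gas-1* libraries, against 423, 430.3, 471, 447 and 431 in wt libraries. It was lower in *gas-1* than in wt (log2 fold change -0.33, SE 0.055, adjusted p = 9.7e-05). Between the mutants it did not pass (-0.15, SE 0.055, adjusted p = 0.0502), but it did without *gas-1* replicate 5, the one *gas-1* library that did not lie above every *age-1; gas-1* library (-0.21, adjusted p = 0.00061), and without wt replicate 3 (adjusted p = 0.0395). It also passed, narrowly, with a pseudocount of 1 FPKM, a filter at 5 FPKM or the replicate block (adjusted p = 0.0487, 0.0444 and 0.0479).

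The 5 eIF4E genes did not move together. *ife-3* made up most of the family, 72.1% of its summed FPKM in *age-1; gas-1*, 74.4% in *gas-1* and 78.1% in wt animals. *ife-1*, *ife-3* and *ife-5* are known from the germ line, whereas *ife-2* and *ife-4* are known from somatic tissues. *ife-3* stood at 169.7, 165, 153, 164 and 181 FPKM in *age-1; gas-1* libraries and 207, 213, 209, 215 and 202 in *gas-1* libraries, against 267, 240.0, 255, 269 and 258 in wt libraries. It fell at both steps without overlap, by 0.30 in *gas-1* compared to wt (SE 0.043, adjusted p = 3e-05) and by 0.33 in *age-1; gas-1* against *gas-1* (SE 0.043, adjusted p = 5.9e-05). *ife-1* stood at 38.04, 36.3, 36.05, 37.5 and 38.2 FPKM in *age-1; gas-1* libraries and 43.2, 45.9, 44.7, 47.0 and 44.8 in *gas-1* libraries, against 53.02, 49.6, 47.7, 56.4 and 49.7 in wt libraries. It fell by 0.18 and 0.28 in the same comparisons (adjusted p = 0.0019 and 0.00026), although 24.7% of its exonic bases are shared with *dro-1* on the same strand, so its reads may be split between these genes.

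*ife-2*, on the X chromosome, stood at 13.1, 15.2, 13.3, 13.1 and 14.9 FPKM in *age-1; gas-1* libraries and 13.6, 14.6, 13.97, 13.998 and 14.98 in *gas-1* libraries, against 9.03, 11.1, 10.8, 9.75 and 10.2 in wt libraries. Every mutant library lay above every wt library. The log2 fold change was 0.48 in *gas-1* compared to wt (SE 0.063, adjusted p = 1.3e-05) and 0.45 in *age-1; gas-1* compared to wt (SE 0.063, adjusted p = 1.6e-05), and the mutants overlapped. The second rise did not pass with median-of-ratios rescaling over all genes (0.17, adjusted p = 0.091). *ife-4*, also on the X chromosome, encodes a cap-binding protein of the 4EHP type and was higher by 0.49 in *gas-1* compared to wt (SE 0.116, adjusted p = 0.0019). Its levels were 9.41, 12.3, 10.4, 9.24 and 11.3 FPKM in *age-1; gas-1*, 9.73, 10.3, 9.76, 10.7 and 12.7 in *gas-1* and 6.01, 6.95, 9.29, 7.38 and 8.34 in wt libraries. The highest wt library lay within the *age-1; gas-1* range. The call was lost after quantile normalization (0.21, adjusted p = 0.12) and after median-of-ratios rescaling over all genes (0.25, adjusted p = 0.11), as was that in *age-1; gas-1* compared to wt (0.14 and 0.20, adjusted p = 0.27 and 0.20).

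*ife-5*, which had the lowest mean level of the 72 genes in each strain, showed another order. It stood at 2.79, 2.70, 2.55, 2.81 and 2.80 FPKM in *age-1; gas-1* libraries, 2.104, 2.59, 2.18, 2.08 and 1.76 in *gas-1* libraries, and 3.17, 2.96, 2.88, 3.11 and 3.09 in wt libraries. The *gas-1* libraries were lowest but for replicate 2, which lay within the *age-1; gas-1* range, with a log2 fold change of -0.50 compared to wt (SE 0.085, adjusted p = 0.00015), and *age-1; gas-1* against *gas-1* was higher by 0.34 (SE 0.085, adjusted p = 0.0065), the only rise among the initiation factors in that comparison. It did not pass after quantile normalization (0.23, adjusted p = 0.15). *age-1; gas-1* was called lower than wt with either median-of-ratios or quantile normalization (-0.27, -0.42 and -0.71), but not as deposited.

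eIF5A, which helps ribosomes through difficult stretches during elongation and is named as an initiation factor for historical reasons, has a gene known from the germ line, *iff-1*, and one known from the soma, *iff-2*. *iff-1* stood at 775, 730.2, 727, 788 and 803 FPKM in *age-1; gas-1* libraries and 867, 956, 872, 989 and 955 in *gas-1* libraries, against 1254, 1176, 1160.4, 1354 and 1167 in wt libraries. It fell at both steps without overlap (-0.40 in *gas-1* compared to wt, adjusted p = 1.6e-05, and -0.28 in *age-1; gas-1* against *gas-1*, adjusted p = 0.0011). *iff-2* ran the other way, at 151, 144, 145, 155 and 149 FPKM in *age-1; gas-1* libraries and 134, 115, 127, 137 and 147 in *gas-1* libraries, against 102, 121, 73.6, 110.2 and 88.8 in wt libraries. It was higher in *gas-1* than in wt by 0.43 (SE 0.107, adjusted p = 0.0026), with 1 wt library above the lowest *gas-1* library, and higher in *age-1; gas-1* than in wt by 0.61 (SE 0.107, adjusted p = 0.00012). The step between the mutants did not pass (0.18, adjusted p = 0.23), although it did in a fit of those 10 libraries alone (adjusted p = 0.040), and the rise in *gas-1* did not pass with median-of-ratios rescaling over all genes (0.19, adjusted p = 0.094).

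The ratios within these families summarise the opposite movements. The pairs were chosen after their values had been seen, so the ratios are given as a description. The level of *iff-1* over that of *iff-2* was 5.01 to 5.39 in *age-1; gas-1*, 6.47 to 8.32 in *gas-1* and 9.74 to 15.8 in wt libraries. *ife-3* over *ife-2* was 10.9 to 12.99, 13.5 to 15.4 and 21.7 to 29.5 in the same strains. *ife-1* over *ife-4* was 2.95 to 4.06 in *age-1; gas-1* and 3.53 to 4.58 in *gas-1*, which overlap, and 5.14 to 8.82 in wt libraries. Such ratios do not depend on how a library is scaled as a whole. The summed germline markers given above moved in the same order as these ratios, and their part in them was not tested. *ife-5*, also known from the germ line, is in none of these ratios. It was higher in *age-1; gas-1* than in *gas-1* (0.34, adjusted p = 0.0065).

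**Figure D3:**
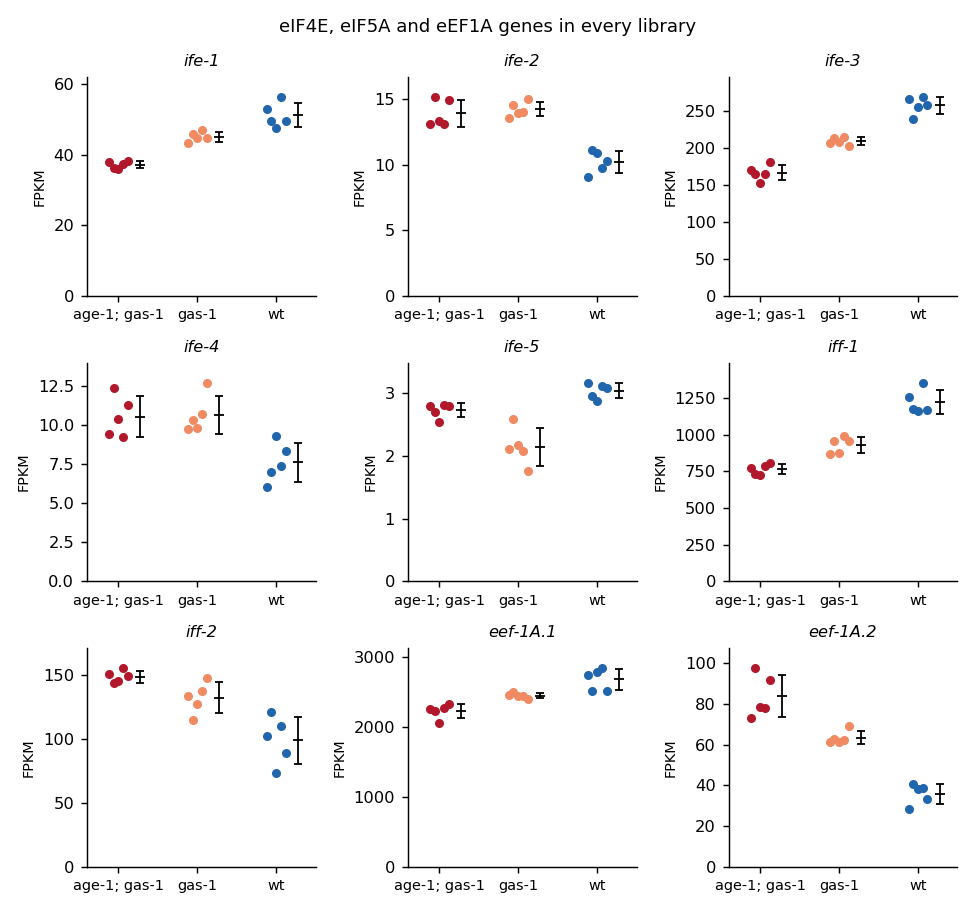
FPKM of the 5 eIF4E genes, the 2 eIF5A genes and the 2 eEF1A genes in every library (points, 5 a strain), with the mean and SD of each strain to the right of its points; every axis starts at 0. ife-1, ife-3, iff-1 and eef-1A.1 are lowest in age-1; gas-1 and highest in wt, whereas ife-2, ife-4, iff-2 and eef-1A.2 are lowest in wt.

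The remaining factors with eIF names were lower in *gas-1* than in wt, all 4 of them. *eif-4A3*, which encodes the helicase of the exon junction complex on spliced mRNAs, had the lowest log2 fold change of the class in that comparison. It stood at 13.6, 13.2, 12.5, 12.7 and 13.8 FPKM in *age-1; gas-1* and 13.2, 13.4, 12.4, 14.5 and 13.8 in *gas-1* libraries, against 22.9, 20.2, 21.5, 23.4 and 20.7 in wt libraries. Its log2 fold change was -0.69 in *gas-1* compared to wt (SE 0.053, adjusted p = 9e-08) and -0.03 in *age-1; gas-1* against *gas-1* (adjusted p = 0.68), and the ranges of the mutants overlapped. *eif-6*, whose product keeps the large ribosomal subunit from joining early, fell at both steps (-0.41, adjusted p = 1.9e-05, and -0.28, adjusted p = 0.0018). *eif-2A* and *eif-2D*, which encode alternative carriers of the initiator tRNA in other eukaryotes, changed by -0.13 and -0.18 in *gas-1* compared to wt (adjusted p = 0.018 and 0.0079). Between the mutants *eif-2A* was lower (-0.15, adjusted p = 0.018, and 0.0501 without *age-1; gas-1* replicate 4), while *eif-2D*, with single libraries left out, passed only without *gas-1* replicate 5 (adjusted p = 0.034).

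**Figure D4:**
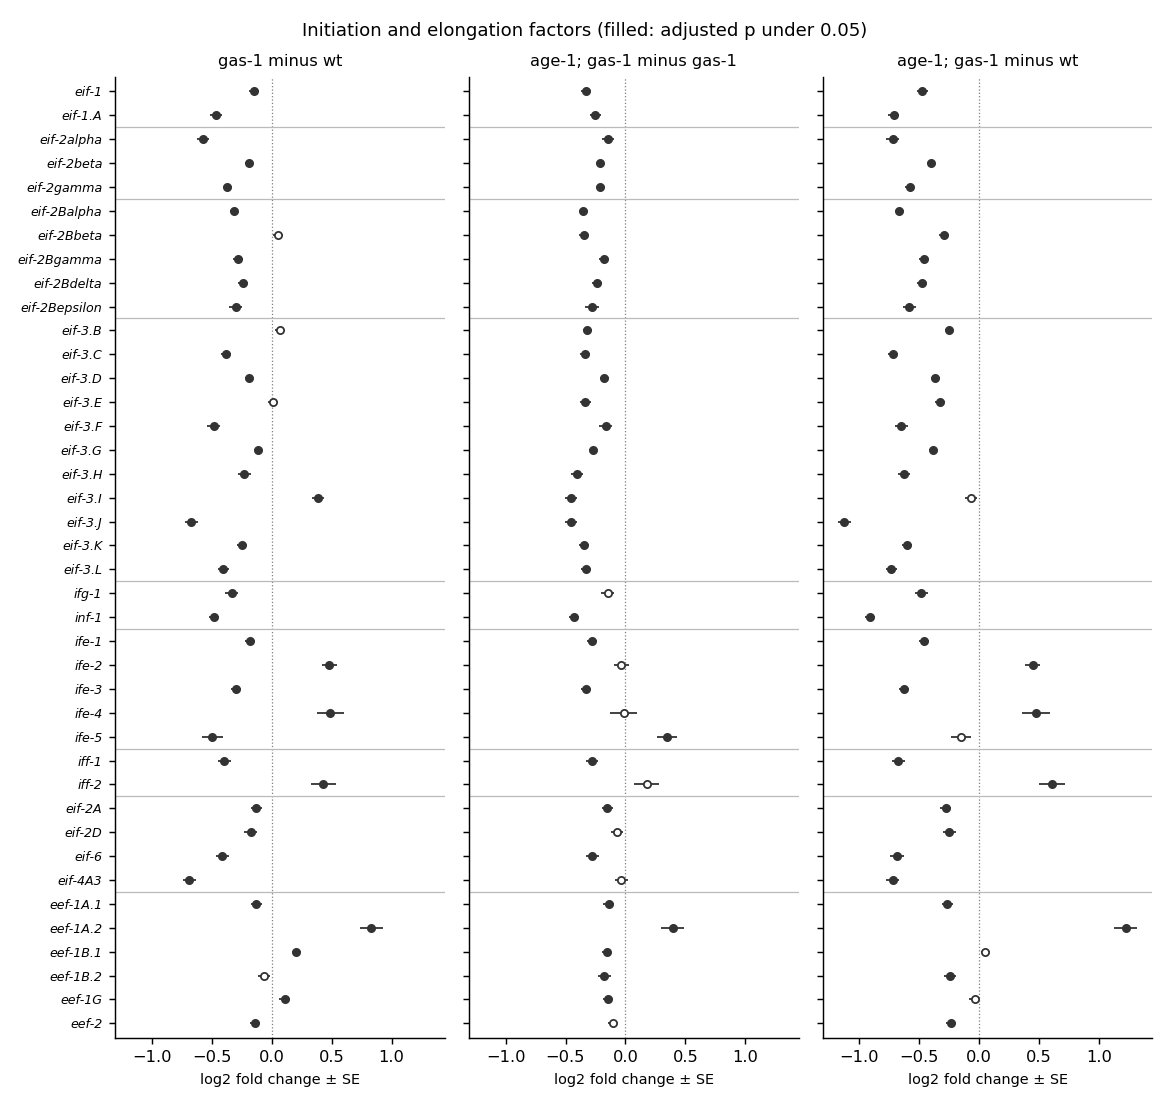
Log2 fold change (point) with its SE (line) of the 34 initiation factors and, below the lowest grey line, the 6 elongation factors, in gas-1 compared to wt, age-1; gas-1 against gas-1 and age-1; gas-1 compared to wt; grey lines separate groups of factors and filled points have an adjusted p under 0.05. Most points lie left of 0, and ife-2, ife-4, iff-2 and eef-1A.2 lie right of it in both comparisons with wt.

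The elongation factors were the most abundant of the 4 classes, summing to 8914 ± 209.8 FPKM in *age-1; gas-1*, 9821 ± 128 in *gas-1* and 9444 ± 432 in wt animals, and the *gas-1* range reached no lower than 9684 while that of *age-1; gas-1* ended at 9216. Of the 6 genes, 3 were higher and 2 lower in *gas-1* compared to wt, 1 higher and 4 lower in *age-1; gas-1* against *gas-1*, and 1 higher and 3 lower in *age-1; gas-1* compared to wt. Over all tested genes 44%, 13.5% and 44.5% were higher and 24.6%, 19.5% and 31.2% lower in these comparisons, so the 3 higher and 2 lower of 6 in *gas-1* compared to wt are close to the shares over all genes. The count of 4 rested on small changes: it was 2 without *gas-1* replicate 3, 1 without *gas-1* replicate 4 or replicate 2 of *age-1; gas-1*, and 0 after upper-quartile rescaling. The count of 2 lower in *gas-1* compared to wt was 1 without wt replicate 4.

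eEF1A has a major and a minor gene. *eef-1A.1* stood at 2252, 2228, 2052, 2263 and 2318 FPKM in *age-1; gas-1* and 2455, 2498, 2433, 2433 and 2403 in *gas-1* libraries, against 2737, 2508, 2783, 2836 and 2509 in wt libraries. The strains do not overlap, but the steps were small: -0.13 in *gas-1* compared to wt (SE 0.045, adjusted p = 0.021, and 0.053 without wt replicate 4) and -0.14 in *age-1; gas-1* against *gas-1* (SE 0.045, adjusted p = 0.029). The second call was lost without *gas-1* replicate 1, 2, 3 or 4 or replicate 2 or 3 of *age-1; gas-1*, with adjusted p between 0.051 and 0.076, and after either median-of-ratios or upper-quartile rescaling (adjusted p 0.105 to 0.151), and the first after quantile normalization (-0.043, adjusted p = 0.52). *eef-1A.2*, on the X chromosome, stood at 73.2, 97.7, 78.4, 78.2 and 91.8 FPKM in *age-1; gas-1* and 61.5, 63.03, 61.4, 62.3 and 69.2 in *gas-1* libraries, against 28.5, 40.8, 38.2, 38.9 and 33.3 in wt libraries.

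The *eef-1A.2* libraries form 3 levels in the opposite order to those of *eef-1A.1*. The log2 fold change of *eef-1A.2* was 0.83 in *gas-1* compared to wt (SE 0.097, adjusted p = 4.5e-06), 0.39 in *age-1; gas-1* against *gas-1* (SE 0.097, adjusted p = 0.0063) and 1.22 in *age-1; gas-1* compared to wt (SE 0.097, adjusted p = 5.5e-08), the largest rise among the 72 genes. The step between the mutants did not pass without the 4 libraries low in sperm genes (0.27, adjusted p = 0.070). It remained the minor gene, at 3.63% of the summed eEF1A level in *age-1; gas-1*, 2.53% in *gas-1* and 1.33% in wt animals. The 2 genes are near-identical in their coding sequence, so single reads of 50 bases may have been split between them.

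The exchange factor subunits *eef-1B.1* and *eef-1G* were highest in *gas-1*. *eef-1B.1* stood at 2706, 2667, 2703, 2849 and 2784 FPKM in *age-1; gas-1*, 2963, 3059, 3032, 3142 and 3074 in *gas-1* and 2644, 2562, 2557, 2842 and 2638 in wt libraries. Every *gas-1* library thus lay above all others, with a log2 fold change of 0.21 in *gas-1* compared to wt (SE 0.038, adjusted p = 0.00025) and -0.16 in *age-1; gas-1* against *gas-1* (SE 0.038, adjusted p = 0.0058), although the rise was 0.08 with median-of-ratios rescaling (adjusted p = 0.16) and -0.04 when that was taken over all genes, and the fall was lost after upper-quartile rescaling (adjusted p = 0.070). *eef-1G* was higher by 0.11 in *gas-1* compared to wt (adjusted p = 0.042), a call lost when 1 of 8 libraries was left out (wt replicates 2, 3 and 5, *gas-1* replicates 1, 3 and 4, *age-1; gas-1* replicates 1 and 5; adjusted p 0.052 to 0.0987), and it was of opposite sign after median-of-ratios rescaling (-0.02), and called lower when that was taken over all genes (-0.13, adjusted p = 0.047). *eef-2*, which drives translocation, was lower in *gas-1* compared to wt (-0.14, adjusted p = 0.010), and the double mutant was lower than wt (-0.24, adjusted p = 0.00013). It stood at 609, 613, 586, 636 and 617 FPKM in *age-1; gas-1* libraries and 661, 637, 673, 663 and 649 in *gas-1* libraries, against 762, 701, 694, 786 and 672 in wt libraries, and its step between the mutants (-0.10, adjusted p = 0.081) passed without wt replicate 4 (adjusted p = 0.0478) and in a fit of those 10 libraries alone (adjusted p = 0.029). After quantile normalization *eef-2* did not pass in *gas-1* or *age-1; gas-1* compared to wt (-0.047 and -0.058, adjusted p = 0.28 and 0.17). *eef-1B.2*, a further exchange factor subunit, averaged 126 ± 7.46 FPKM in *age-1; gas-1*, 143 ± 9.93 in *gas-1* and 149 ± 6.69 in wt animals and was lower between the mutants (-0.18, adjusted p = 0.019, and 0.051 to 0.053 without *gas-1* replicate 4 or replicate 2 of *age-1; gas-1*). That call was also lost after median-of-ratios, upper-quartile or quantile scaling (adjusted p = 0.051, 0.105 and 0.076), and with median-of-ratios *eef-1B.2* was lower in *gas-1* compared to wt (-0.19, adjusted p = 0.014).

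None of the 19 cytosolic synthetases was higher by limma in any of the 3 comparisons. The enzymes were placed in the cytosol or in mitochondria from knowledge of the worm genes, not from the files, and for alanine *aars-2* is the cytosolic one and *aars-1* the mitochondrial one. In *gas-1* compared to wt 17 were lower, in *age-1; gas-1* against *gas-1* 12, and in the double mutant compared to wt 18, where 24.6%, 19.5% and 31.2% of all tested genes were lower. Their 5 libraries lay wholly below the 5 of the other strain in 16, 14 and 17 of the 19 genes, against 18.8%, 15.7% and 27% of all tested genes. With 1 library left out in turn the lower genes numbered 17 to 18, 9 to 13 and 18. At 2567 ± 18.2 FPKM in *age-1; gas-1*, 2770.2 ± 35.0 in *gas-1* and 3429 ± 158 in wt animals, the summed level of the class lay at 3 heights without overlap (no test was made of the sum).

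*wars-1*, for tryptophan, had the lowest log2 fold change of all synthetases in both comparisons with wt. It stood at 23.3, 22.8, 20.6, 21.3 and 22.2 FPKM in *age-1; gas-1* and 24.8, 24.5, 24.7, 26.2 and 24.1 in *gas-1* libraries, against 44.8, 40.3, 37.95, 46.2 and 37.8 in wt libraries. The log2 fold change was -0.73 in *gas-1* compared to wt (SE 0.057, adjusted p = 1e-07) and -0.90 in *age-1; gas-1* compared to wt (SE 0.057, adjusted p = 7e-09). The step between the mutants (-0.17, SE 0.057, adjusted p = 0.032) was lost when 1 of 7 libraries was left out, *gas-1* replicates 1 to 4 and *age-1; gas-1* replicates 3 to 5, with adjusted p between 0.0505 and 0.0805, and also with libraries rescaled by median-of-ratios or upper quartile (adjusted p = 0.096 and 0.12). *rars-1*, for arginine, and *mars-1*, for methionine, followed in *gas-1* compared to wt, at -0.44 (SE 0.034, adjusted p = 9.1e-08) and -0.39 (SE 0.036, adjusted p = 5.6e-07).

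Between the mutants the order of the enzymes was another. *tars-1*, for threonine, stood at 183, 173, 179, 182 and 173 FPKM in *age-1; gas-1* and 224, 229, 229.9, 227 and 227 in *gas-1* libraries, against 262, 249.6, 246, 276 and 238 in wt libraries. Its log2 fold change was -0.35 in *age-1; gas-1* against *gas-1* (SE 0.037, adjusted p = 8.5e-06) and only -0.16 in *gas-1* compared to wt (SE 0.037, adjusted p = 0.0014). *gars-1*, for glycine, likewise changed by -0.35 (SE 0.034, adjusted p = 4.2e-06) and -0.21 (SE 0.034, adjusted p = 9.9e-05), at 45.4, 44.4, 46.3, 44.3 and 45.2 FPKM in *age-1; gas-1*, 57.1, 59.02, 58.2, 57.8 and 55.9 in *gas-1* and 65.6, 64.9, 68.3, 71.3 and 62.9 in wt libraries. By contrast *pars-1*, for proline, and *qars-1*, for glutamine, were lower in *gas-1* compared to wt by 0.40 and 0.39 and did not pass between the mutants, at 0.06 and 0.02 (adjusted p = 0.34 and 0.76). *dars-1*, *iars-1* and *yars-1*, for aspartate, isoleucine and tyrosine, had the same calls. Besides *wars-1*, the calls of *cars-1* and *ears-1*, for cysteine and glutamate, were also lost between the mutants with single libraries left out: *cars-1* (-0.14, adjusted p = 0.026) was lost without *gas-1* replicate 2, 3 or 4 or replicate 2 or 3 of *age-1; gas-1* (adjusted p 0.0501 to 0.065), and *ears-1* (-0.13, adjusted p = 0.020) without *gas-1* replicate 3 or 4 (adjusted p 0.051 to 0.053).

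*sars-1*, for serine, was the cytosolic synthetase that passed in no comparison. Its levels were 148, 178, 163, 151 and 167 FPKM in *age-1; gas-1*, 151, 154, 151.6, 160.0 and 172 in *gas-1* and 168, 153, 164, 170.0 and 155 in wt libraries. All 3 strains overlapped, with log2 fold changes of -0.04 in *gas-1* compared to wt and, between the mutants, 0.03 (SE 0.054 each, adjusted p = 0.54 and 0.71). After median-of-ratios rescaling it was lower in *gas-1* compared to wt (-0.16, adjusted p = 0.028). *lars-1*, for leucine, was called only in *age-1; gas-1* compared to wt (-0.15, adjusted p = 0.0069), and also in *gas-1* compared to wt without wt replicate 5 (adjusted p = 0.033).

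**Figure D5:**
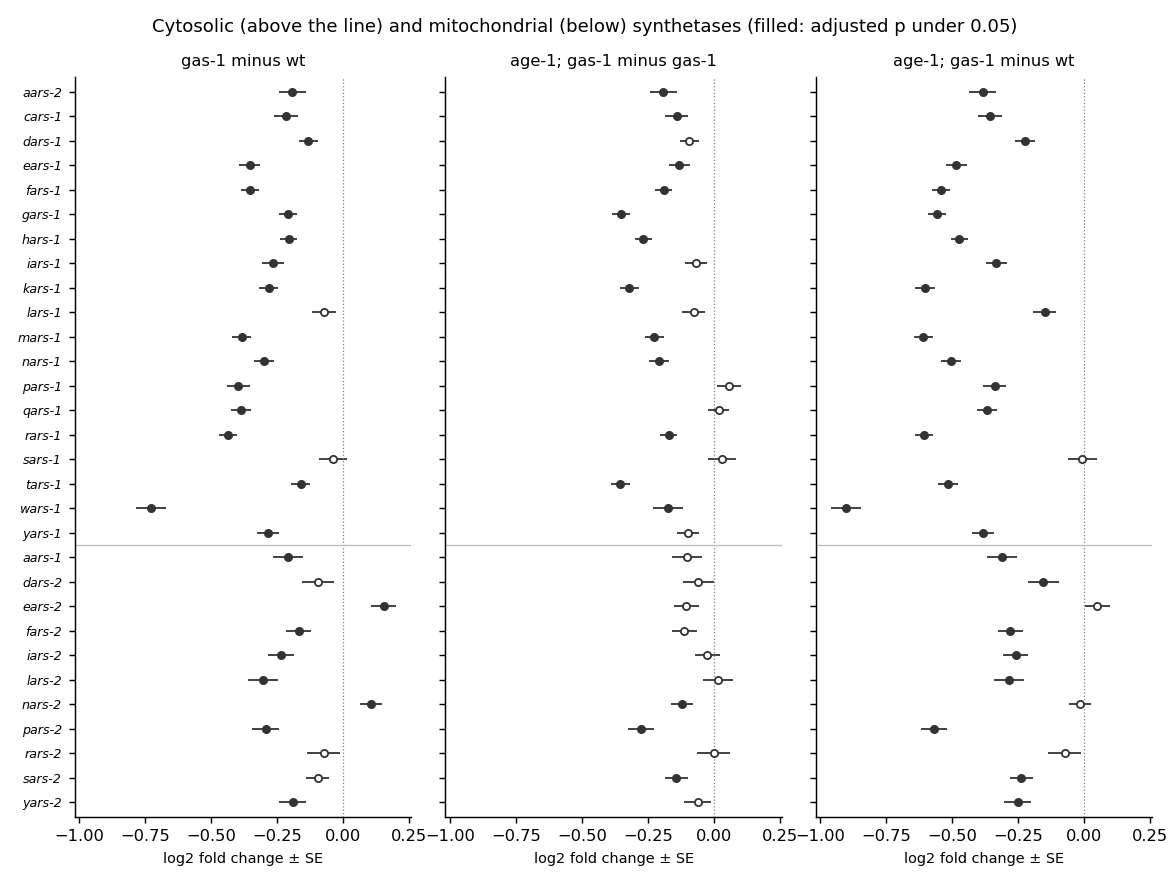
Log2 fold change (point) with its SE (line) of the 19 cytosolic and, below the grey line, the 11 mitochondrial tRNA synthetases in gas-1 compared to wt, age-1; gas-1 against gas-1 and age-1; gas-1 compared to wt; filled points have an adjusted p under 0.05. wars-1 lies farthest left in both comparisons with wt, and ears-2 and nars-2 lie right of 0 in gas-1 compared to wt.

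Of the 11 mitochondrial synthetases, 6 were lower and 2 higher in *gas-1* compared to wt, 3 lower in *age-1; gas-1* against *gas-1*, and 8 lower in *age-1; gas-1* compared to wt. Over all tested genes 24.6%, 19.5% and 31.2% were lower and 44%, 13.5% and 44.5% higher in these comparisons. The 3 of 11 lower between the mutants are thus near the share over all genes. The count of 3 was 1 without *gas-1* replicate 3 or replicate 2 or 5 of *age-1; gas-1* or without the 4 libraries low in sperm genes, and 6 without *gas-1* replicate 5. *pars-2*, for proline, was the one member lower at both steps, at 6.70, 6.09, 6.88, 6.83 and 6.22 FPKM in *age-1; gas-1* and 7.76, 7.70, 8.10, 8.36 and 7.75 in *gas-1* libraries, against 9.91, 9.52, 9.24, 10.3 and 9.77 in wt libraries. The strains do not overlap (-0.29 in *gas-1* compared to wt, SE 0.050, adjusted p = 0.00013, and -0.28 in *age-1; gas-1* against *gas-1*, SE 0.050, adjusted p = 0.00079). *lars-2*, for leucine, was lower in both mutants, which overlapped, at 21.4 ± 1.52 FPKM in *age-1; gas-1* and 21.1 ± 1.14 in *gas-1*, against 26.1 ± 1.51 in wt animals (-0.30 in *gas-1* compared to wt, adjusted p = 0.00031). *aars-1*, *fars-2*, *iars-2* and *yars-2*, for alanine, phenylalanine, isoleucine and tyrosine, were lower in *gas-1* compared to wt by 0.17 to 0.24, and *aars-1*, *fars-2* and *yars-2* were, with single libraries left out, lower between the mutants only without *gas-1* replicate 5 (adjusted p = 0.019, 0.033 and 0.031).

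The 2 mitochondrial synthetases that were higher in *gas-1* moved little. *ears-2*, for glutamate, stood at 24.8, 23.7, 27.98, 23.8 and 23.2 FPKM in *age-1; gas-1*, 25.5, 26.7, 26.6, 27.5 and 26.1 in *gas-1* and 23.2, 24.3, 23.1, 24.6 and 23.7 in wt libraries. All *gas-1* libraries exceeded all wt libraries (0.15, SE 0.047, adjusted p = 0.010), but the change was 0.03 after median-of-ratios rescaling and -0.09 when that was taken over all genes. *nars-2*, for asparagine and the most abundant of the class at 146 ± 5.64 FPKM in *age-1; gas-1*, 158 ± 5.15 in *gas-1* and 147 ± 8.71 in wt animals, was higher by 0.11 in *gas-1* compared to wt (SE 0.042, adjusted p = 0.037) and of opposite sign after median-of-ratios rescaling, where over all genes it was called lower (-0.14, adjusted p = 0.016). The call as deposited was lost without wt replicate 1, 2 or 3 or *gas-1* replicate 1, 3 or 4 (adjusted p 0.0501 to 0.089), which brings the count of higher genes to 1. Its step between the mutants (-0.12, adjusted p = 0.040) was lost without *gas-1* replicate 1, 3 or 4 or replicate 2, 4 or 5 of *age-1; gas-1* (adjusted p 0.058 to 0.101). *sars-2*, for serine, was lower in *age-1; gas-1* against *gas-1* (-0.14, adjusted p = 0.021, and 0.052 to 0.056 without *gas-1* replicate 3 or replicate 2 or 5 of *age-1; gas-1*), a call lost after upper-quartile rescaling (adjusted p = 0.11), and with median-of-ratios, upper-quartile or quantile scaling it was lower in *gas-1* compared to wt (-0.22, -0.12 and -0.18). *dars-2*, for aspartate, was lower only in *age-1; gas-1* compared to wt (-0.15, adjusted p = 0.028, and 0.055 to 0.082 without wt replicate 1, 4 or 5 or replicate 2 or 5 of *age-1; gas-1*). *rars-2*, for arginine, passed in no comparison, at 30.2 ± 1.63 FPKM in *age-1; gas-1*, 30.2 ± 2.35 in *gas-1* and 31.8 ± 2.35 in wt animals, but it was called lower in both mutants, *gas-1* and *age-1; gas-1*, after median-of-ratios rescaling (adjusted p = 0.014 and 0.016) and quantile normalization (adjusted p = 0.041 and 0.044).

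The 2 genes counted apart were lower as well. *vars-1*, for valine, was called only in *age-1; gas-1* compared to wt, at 50.3 ± 5.83 FPKM in *age-1; gas-1*, 55.5 ± 3.21 in *gas-1* and 58.8 ± 5.74 in wt animals (-0.23, SE 0.082, adjusted p = 0.022), and not without wt replicate 1 or 4 or replicate 2 or 5 of *age-1; gas-1* (adjusted p 0.051 to 0.062) or after quantile normalization (adjusted p = 0.0503). After median-of-ratios rescaling it was lower in *gas-1* compared to wt as well (-0.20, adjusted p = 0.032). *eftu-2* averaged 14.9 ± 0.948 FPKM in *age-1; gas-1*, 16.7 ± 0.816 in *gas-1* and 19.7 ± 1.21 in wt animals and was lower in *gas-1* compared to wt (-0.24, SE 0.055, adjusted p = 0.0014). Its step between the mutants (-0.16, adjusted p = 0.037) was lost when 1 of 8 libraries was left out, *gas-1* replicates 1 to 4 and *age-1; gas-1* replicates 1, 3, 4 and 5 (adjusted p 0.051 to 0.0976).

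The members are spread over the genome, with 21 on chromosome I, 16 on II, 14 on III, 10 on IV, 8 on V and 3 on X in the WBcel235 assembly. The 3 on X are *ife-2* (X:381385-382709, minus strand), *ife-4* (X:1104212-1106251, plus strand) and *eef-1A.2* (X:7823654-7825769, plus strand), and all 3 were higher in both mutants than in wt. Among all tested genes, 69.6% of 1626 on X and 39.7% of 9933 on the autosomes were higher in *gas-1* compared to wt, and 5.90% and 27.7% were lower. *iff-2* (II:8559375-8561367, minus strand) was higher as well and is autosomal. Of the 72 genes, 30 share exonic bases with another gene, but only *ife-1* shares over 10% with a protein-coding one. *iff-1* has an antisense non-coding RNA over 20.5% of its exonic bases, and the strand setting of the counting is not given in the sources used here.

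Initiation factors whose names fall outside the rule moved with the class. *egl-45* and *cif-1*, which encode further subunits of eIF3, *iffb-1*, which encodes eIF5B, and *drr-2*, an eIF4H relative, were lower in all 3 comparisons. *egl-45* averaged 92.6 ± 2.24 FPKM in *age-1; gas-1*, 101 ± 3.81 in *gas-1* and 146 ± 7.68 in wt animals (-0.53 in *gas-1* compared to wt, adjusted p = 5.5e-08, and -0.13 in *age-1; gas-1* against *gas-1*, adjusted p = 0.020). The second call was lost without *gas-1* replicate 4 or replicate 3 of *age-1; gas-1* (adjusted p = 0.056 and 0.052). The synthetase genes *fars-3*, for the beta subunit of the phenylalanine enzyme, and *glp-4*, for valine, were lower in *gas-1* compared to wt by 0.37 and 0.42.

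Of 9 genes listed for termination and recycling, 7 were lower in *gas-1* compared to wt. Between the mutants 7 were lower, and 8 in *age-1; gas-1* compared to wt, with none higher in any comparison. Over all tested genes 24.6%, 19.5% and 31.2% were lower in these comparisons. The list also holds *abcf-1*, *abcf-2*, *abcf-3* and *gtbp-1*, whose part in termination or recycling was not checked. The other members are *erfa-1*, *erfa-3*, *abce-1*, *pelo-1* and *hbs-1*. All of these were lower between the mutants, but *pelo-1* did not pass in *gas-1* compared to wt (-0.05, adjusted p = 0.51). *erfa-1*, the release factor that reads stop codons, averaged 127 ± 1.89 FPKM in *age-1; gas-1*, 151 ± 5.40 in *gas-1* and 225 ± 10.7 in wt animals (-0.58, SE 0.035, adjusted p = 8.7e-09 in *gas-1* compared to wt). *abce-1*, which splits the ribosome after termination, changed by -0.56 in the same comparison (SE 0.034, adjusted p = 6.9e-09).

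The factors of mitochondrial translation were mostly higher in *gas-1*. Of the 5 that could be matched from a list of 12 names, 4 were higher and none lower in *gas-1* compared to wt, 3 lower in *age-1; gas-1* against *gas-1*, and 3 higher and 1 lower in *age-1; gas-1* compared to wt. Over all tested genes 44%, 13.5% and 44.5% were higher and 24.6%, 19.5% and 31.2% lower in these comparisons. The 3 of 5 higher in *age-1; gas-1* compared to wt are thus near the share over all genes. *tsfm-1*, the exchange factor of the mitochondrial elongation factor Tu, averaged 56.1 ± 5.75 FPKM in *age-1; gas-1*, 73.6 ± 2.73 in *gas-1* and 36.7 ± 0.909 in wt animals, with log2 fold changes of 1.00 in *gas-1* compared to wt (SE 0.059, adjusted p = 5.2e-09) and -0.40 in *age-1; gas-1* against *gas-1* (SE 0.059, adjusted p = 0.00017). *gfm-1*, the mitochondrial translocase, and *mrrf-1*, a ribosome recycling factor, were higher in *gas-1* compared to wt by 0.47 and 0.40 (adjusted p = 0.00036 and 6.7e-05). *tufm-1*, which encodes elongation factor Tu, was higher by 0.21 (adjusted p = 0.026), a call lost without wt replicate 3 or 5 or *gas-1* replicate 3 or 4 (adjusted p 0.0502 to 0.0695).

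Ribosomal protein genes, the set most alike in function, are given beside the members. Of 78 tested cytosolic ones, 59 were lower and 1 higher in *gas-1* compared to wt, 63 lower in *age-1; gas-1* against *gas-1*, and 76 lower and 1 higher in *age-1; gas-1* compared to wt, with medians of -0.22, -0.24 and -0.46. Over all tested genes 24.6%, 19.5% and 31.2% were lower and 44%, 13.5% and 44.5% higher. Of 69 mitochondrial ones, 22 were lower and 7 higher in *gas-1* compared to wt, and 64 lower between the mutants. In *age-1; gas-1* compared to wt 63 were lower and 1 higher. Their medians were -0.07, -0.30 and -0.36 in these comparisons. The 22 lower are near the share over all genes, and the 7 higher are below it. The count of 63 cytosolic genes was 28 after upper-quartile rescaling, that of 59 was 38 after quantile normalization, and the mitochondrial 22 was 45 after median-of-ratios rescaling, 56 when that was taken over all genes and 43 after quantile normalization. The mitochondrial synthetases had medians of -0.17, -0.10 and -0.25 in the same comparisons, and the difference between the sets was not tested.

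Kinases and regulators of translation were mixed. Of 22 genes, 5 were higher and 9 lower in *gas-1* compared to wt, 3 higher and 2 lower in *age-1; gas-1* against *gas-1*, and 7 higher and 10 lower in *age-1; gas-1* compared to wt. With 44%, 13.5% and 44.5% of all tested genes higher and 24.6%, 19.5% and 31.2% lower in these comparisons, the 3 higher between the mutants are near the share over all genes. Between the mutants each count ran from 1 to 4 as single libraries were left out, the higher count being 1 without *age-1; gas-1* replicate 3. *pek-1*, an eIF2 alpha kinase of the endoplasmic reticulum, was higher in *gas-1* compared to wt by 0.66 (SE 0.135, adjusted p = 0.00064), whereas *gcn-2*, the eIF2 alpha kinase that senses uncharged tRNA, was lower by 0.18 (adjusted p = 0.024, and 0.054 to 0.059 without wt replicate 3 or *gas-1* replicate 5). *ifet-1*, which encodes an eIF4E-binding repressor of the germ line, fell by 0.44 in *gas-1* compared to wt and by 0.28 in *age-1; gas-1* against *gas-1* (adjusted p = 2e-06 and 0.00046). *pab-1*, which encodes the major poly(A)-binding protein, passed in no comparison, and *pab-2* was higher by 0.92 in *gas-1* compared to wt (SE 0.136, adjusted p = 4.1e-05). *atf-4*, a transcription factor whose targets include synthetase genes in other animals, averaged 13.3 ± 1.97 FPKM in *age-1; gas-1*, 10.5 ± 0.514 in *gas-1* and 10.5 ± 1.36 in wt animals. It was higher between the mutants by 0.34 (SE 0.104, adjusted p = 0.022), a call lost without *gas-1* replicate 2 or replicate 1, 3 or 4 of *age-1; gas-1* (adjusted p 0.054 to 0.058). A link between the level of *atf-4* and the synthetase genes was not tested.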

How the data were processed

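mRNA of whole animals was sequenced in 15 libraries, 5 of each strain, from about 100 ng of total RNA with a stranded kit and single reads of 50 bases. The authors deposited 1 table of FPKM values per library. The submitters' processing notes name STAR 2.4.0h, Cuffdiff and Cufflinks 2.1.1, besides FastQC 0.10.1 and CASAVA 1.8.2, without their roles. The genome build, annotation and strand setting: not given in the sources used here. Groups were taken from the labels. The study's methods call the 5 libraries of each strain biological replicates, and neither they nor the labels say whether each came from its own culture. No 2 libraries held identical values.

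Log2(FPKM + 0.1) values of the 11648 of 20483 genes that reached 1 FPKM in 5 or more of 15 libraries were fitted for all 3 strains with limma 3.58.1 in R 4.3.3, with an intensity trend and Benjamini-Hochberg adjustment over all tested genes within each comparison, at a false discovery rate of 5%. The added 0.1 makes the fold changes of low genes too small. The script was tested on simulated data. Libraries were used with the scaling as deposited. The alternatives were other pseudocounts, filters, scalings and models, each library left out, and 4 libraries low in sperm genes left out, which earlier work on these data had picked. Median-of-ratios factors were first taken over all genes, and were taken over the tested genes after that output had been seen, so both are given.

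The members and gene lists were chosen with earlier results of these data known, and the classes by role after group means had been seen. Genes named with values per library were those chosen for their roles (eIF4E, eIF4G, eIF4A, eIF5A, eEF1A and eEF2 genes) and, in each class and comparison, the 2 with the smallest adjusted p in each direction; genes that passed in no comparison or against their class were named as well, and others were chosen after their values were seen. Gene names, positions and overlaps come from the Ensembl annotation of WBcel235, used by gene identifier. No sequences are shown.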

Additional observations from a re-analysis of the deposited data

Results flagged for a closer look

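Within a strain, 1 library lay apart from the other 4 in 7 of 99 sets of 5 values examined for the named genes, by Dixon's ratio of the gap to the range, where chance gives about 1 in 20. *gas-1* replicate 5 was the stray in 3 of them, at 297 FPKM for *ifg-1* (the other *gas-1* libraries at 356 to 369), 69.2 for *eef-1A.2* (61.4 to 63.03) and 15.3 for *eftu-2* (16.7 to 17.3). Replicate 4 of wt stood high at 40.3 FPKM for *eif-2Balpha* (37.8 to 37.9) and 161 for *eef-1B.2* (145 to 149). In *age-1; gas-1*, replicate 5 stood at 142.4 FPKM for *eif-3.J* (124 to 129) and replicate 4 at 27.4 for *rars-2* (30.4 to 31.6).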

How the results depend on the processing

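Counts per class that moved by over 1.5 times were small ones. For the initiation factors, 1 instead of 4 was higher in *gas-1* and 1 instead of 3 in *age-1; gas-1*, both compared to wt, with median-of-ratios rescaling over all genes; between the mutants 0 instead of 1 was higher at a filter of 5 FPKM or after quantile normalization, and 2 in a fit of those 10 libraries. For the elongation factors in *gas-1* compared to wt, the 2 lower became 4 with median-of-ratios over all genes, 0 after quantile normalization and 1 without the 4 libraries low in sperm genes, and the 3 higher became 1 with either median-of-ratios. Between the mutants their 4 lower became 2 with no filter, 1 with median-of-ratios, 0 with upper-quartile rescaling and 1 without those 4 libraries, which also left 0 higher. In *age-1; gas-1* compared to wt their 3 lower became 5 with median-of-ratios over all genes. For the mitochondrial synthetases in *gas-1* compared to wt, the 2 higher became 0 with either median-of-ratios and 1 with upper-quartile rescaling, quantile normalization, limma without the trend, the 10-library fit, the replicate block or without the 4 libraries, and the 6 lower became 10 with median-of-ratios over all genes. Between the mutants their 3 lower became 1 with upper-quartile rescaling or without the 4 libraries. With 1 library left out, the elongation counts of 2 and 4 ran from 1 to 2 and from 1 to 5, and the mitochondrial counts of 2 and 3 from 1 to 2 and from 1 to 6. In *gas-1* compared to wt, the sign turned for *nars-2* (-0.019 with median-of-ratios, -0.14 over all genes), *eef-1G* (-0.017, and -0.13 over all genes), *eef-1B.1* (-0.036) and *ears-2* (-0.088), the last 2 only over all genes; *nars-2* and *eef-1G* were then called lower (adjusted p = 0.016 and 0.047, both over all genes). The causes were not tested.

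Replicate numbers were not used to pair the libraries in the main fit. Of 15 same-numbered pairs across strains, 10 had deviations correlated over 0.1 (range -0.761 to 0.787). The median correlation was 0.288 for same-numbered pairs and 0.0531 for other pairs across strains. Whether libraries of the same number share a source was not tested. With the number as a block, 61, 46 and 64 of the 72 genes were called, against 62, 49 and 64 without it. FPKM hold no read totals, so the limit set by depth is unknown.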
